A study of Mus musculus with 10 samples.

Results

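Mdm2 and 5 of its neighbours on mouse chromosome 10, Cpm, Slc35e3, Nup107, Rap1b and Mdm1, made up a block of genes whose RNA stood far higher in Py2T-LT cells than in MTΔECad cells. They were 6 of the 18103 genes in the deposited count table. They were chosen by their place next to Mdm2 and selected on their CPM in Py2T-LT against MTΔECad libraries, so the difference between the lines is given here as a description, with no test. The responses of the same genes to treatment within a line were not used in the choice and were tested. Only RNA was measured, and the number of DNA copies of the region was not.

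The study treated mouse mesenchymal breast cancer cells in culture and sequenced their RNA at day 7. Py2T-LT cells are Py2T cells kept in culture long term, and MTΔECad cells lack the E-cadherin gene, per their name. Py2T cells are known to stem from a mammary tumour driven by the polyoma middle T antigen, and MTΔECad cells from one driven by Neu. The first group was Py2T-LT with BMP2 plus a MEK inhibitor (2 libraries). The second was Py2T-LT with the MEK inhibitor alone (2), and the third was Py2T-LT controls (2). MTΔECad cells received rosiglitazone, which activates PPARγ, a nuclear receptor of fat cell differentiation (2), or served as controls (2). The labels carry no dose, and the titles of the MTΔECad controls, unlike those of the other libraries, name no day. As usual doses the protocol names 200 ng/ml for BMP2, 40 µM for PD98059, the MEK inhibitor, and 2 µM for rosiglitazone, and control medium held DMSO. Its general scheme for cancer cells also includes rosiglitazone, and the labels do not say whether the BMP2 medium of the Py2T-LT cells held it. Libraries of a group came from 2 independent experiments with the same cell line, so their spread is that between experiments. No second line of either kind was sequenced, so line, tumour origin and E-cadherin deletion cannot be told apart.

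Mdm2 is the E3 ubiquitin ligase that marks the tumour suppressor p53 for degradation, and its gene is itself switched on by p53, which closes a feedback loop. The gene was first found amplified on small extra chromosomes of a transformed mouse cell line, and MDM2 is amplified in many human sarcomas together with its neighbours. Cpm encodes a membrane-bound carboxypeptidase, Slc35e3 a member of the nucleotide sugar transporter family, and Nup107 a scaffold subunit of the nuclear pore. Rap1b encodes a small GTPase of integrin adhesion, and Mdm1 a microtubule-binding protein of centrioles.

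On GRCm38, chromosome 10, the 6 genes lay in the order Cpm, Mdm2, Slc35e3, Nup107, Rap1b and Mdm1. Cpm (NCBI gene 70574) spanned 117629500 to 117687352 on the plus strand and Mdm2 (17246) 117688875 to 117710758 on the minus strand, with their 3′ ends facing each other over 1522 bases. Slc35e3 (215436) spanned 117733678 to 117746358, Nup107 (103468) 117750621 to 117792736 and Rap1b (215449) 117814597 to 117845974, each on the minus strand. Mdm1 (17245) lay apart on the plus strand at 118141540 to 118168999, with a gap of 295565 bases to Rap1b. From the start of Cpm to the end of Mdm1 the block covered 539.5 kb. Cpm and Mdm1 each overlap a small noncoding gene on the other strand in GENCODE. The strand setting of the counting was not given in the sources used here, so reads of those partners cannot be told apart from theirs.

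Promoters of all 6 genes were found among the RefSeq GRCm38.p6 sequences, from 250 bases before to 50 bases after the start that table uses. For Nup107 and Mdm1 that start lies inside the gene span given above, so part of the span falls in the window before it. Those of Mdm2, which anchors the block, of Cpm, with the widest gap between the lines, and of Nup107 and Mdm1, which fell with BMP2, are printed in the direction of transcription. They cover chr10:117710709-117711008 (minus strand) for Mdm2, chr10:117629250-117629549 (plus) for Cpm, chr10:117792656-117792955 (minus) for Nup107 and chr10:118141537-118141836 (plus) for Mdm1. Capitals mark GC boxes, GGGCGG or its reverse complement CCGCCC.
Mdm2: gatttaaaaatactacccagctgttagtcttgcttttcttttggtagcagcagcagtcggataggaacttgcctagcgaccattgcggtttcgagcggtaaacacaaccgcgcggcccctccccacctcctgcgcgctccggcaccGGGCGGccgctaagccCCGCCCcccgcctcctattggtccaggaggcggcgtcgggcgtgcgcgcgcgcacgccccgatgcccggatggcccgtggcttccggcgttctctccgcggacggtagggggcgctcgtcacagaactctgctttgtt
Cpm: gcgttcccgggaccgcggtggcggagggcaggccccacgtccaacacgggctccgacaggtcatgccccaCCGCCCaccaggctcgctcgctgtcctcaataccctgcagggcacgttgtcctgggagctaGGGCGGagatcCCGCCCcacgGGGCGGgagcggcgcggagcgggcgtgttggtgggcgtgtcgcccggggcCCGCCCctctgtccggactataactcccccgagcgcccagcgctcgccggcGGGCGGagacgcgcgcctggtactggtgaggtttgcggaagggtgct
Nup107: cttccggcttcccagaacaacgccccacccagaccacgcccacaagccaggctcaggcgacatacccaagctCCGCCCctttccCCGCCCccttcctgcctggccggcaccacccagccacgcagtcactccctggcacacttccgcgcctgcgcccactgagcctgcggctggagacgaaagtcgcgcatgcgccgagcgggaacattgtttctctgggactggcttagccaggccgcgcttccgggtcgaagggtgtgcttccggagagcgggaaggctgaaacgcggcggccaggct
Mdm1: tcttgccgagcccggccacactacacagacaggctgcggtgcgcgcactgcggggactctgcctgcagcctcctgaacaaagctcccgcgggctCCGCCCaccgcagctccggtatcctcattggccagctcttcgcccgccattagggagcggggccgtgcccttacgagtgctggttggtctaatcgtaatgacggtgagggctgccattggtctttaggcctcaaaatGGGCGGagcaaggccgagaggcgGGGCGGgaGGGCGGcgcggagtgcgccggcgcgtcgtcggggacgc

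All 6 promoters held a GC box, which 35.7% of the 32851 mouse promoters held. Mdm2, Slc35e3 and Nup107 had 2 each, Rap1b and Mdm1 had 4 each, and Cpm had 6. They were rich in G and C, at 64.7% in Mdm2, 68.0% in Slc35e3, Nup107 and Mdm1, 73.7% in Cpm and 78.0% in Rap1b, beside a median of 52.7% over all promoters. None held TATAAA, found in 13.6% of promoters. Mdm2 had 1 match and Nup107 had 3 matches to CCGGAAG, the core of an ETS site, found in 8.86% of promoters. Nup107 also had the palindromic site of NRF1 (0.971% of promoters), Rap1b the cyclic AMP element TGACGTCA (1.79%) and Slc35e3 the E-box CACGTG (7.15%). Motifs were searched on both strands, were chosen after the sequences had been seen, and describe letters, not bound sites. The p53 consensus was found in none of these windows, and in 0.0731% of all promoters. Introns, other promoters of the same gene and all else outside the 300 bases were not searched, so a p53 site there would be missed.

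Library totals ran between 14659987 and 17249199 counts, and 1 count was worth at most 0.0696 CPM, the count divided by library size in units of 1e6 after TMM scaling. Cdh1, the E-cadherin gene, stood at 11 to 36 CPM in the 6 Py2T-LT libraries and at 2.25 to 4.61 CPM in the 4 MTΔECad libraries. The deleted part of Cdh1 was not given in the sources used here, so its count does not check the deletion. Mesenchymal markers summed to 9330 to 12000 CPM in Py2T-LT and 12500 to 18700 CPM in MTΔECad, and epithelial markers to 311 to 688 CPM in Py2T-LT and 283 to 462 CPM in MTΔECad. Of the 6 epithelial markers, 4 (Cdh1, Epcam, Krt18 and Cldn4) were higher in Py2T-LT controls by more than 1 on the log2 scale and 0 were lower, with a median of 3.07. Of all genes tested, 14% were higher and 11.9% lower by that much. Cdh1 is the gene targeted in MTΔECad, and Epcam and Cldn4 had 0 to 2 counts in each MTΔECad control library. Krt8 averaged 219 CPM in Py2T-LT and 199 CPM in MTΔECad controls, and Krt14 10.1 and 9.37 CPM. The libraries of the Py2T-LT controls stood further apart than those of other groups, with a chi-square per gene of 16.4, against 5.27 to 7.58 in the other 4 groups. Endothelial markers stayed at or below 0.646 CPM and macrophage markers, 4 of 6 in the table, at or below 16.6 CPM. In bulk RNA, fewer cells with a transcript and less of it per cell cannot be told apart.

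Mdm2 RNA was abundant in every Py2T-LT library. It stood at 2450 and 2420 CPM with BMP2 plus MEK inhibitor, 3060 and 3460 CPM with MEK inhibitor and 2730 and 2540 CPM in Py2T-LT controls. MTΔECad cells had 85.3 and 88.6 CPM with rosiglitazone and 76.1 and 85.8 CPM in controls. The lines did not overlap, and Py2T-LT controls were 32.6-fold above MTΔECad controls (log2 difference 5.03 ± 0.10, SE). Mdm2 took 0.248% to 0.366% of all counts in Py2T-LT and 0.00712% to 0.00849% in MTΔECad. Ranked by CPM per kb of exon, it was between place 22 and place 33 of 17608 genes in Py2T-LT, and between place 2980 and place 3425 in MTΔECad.

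**Figure D1:**
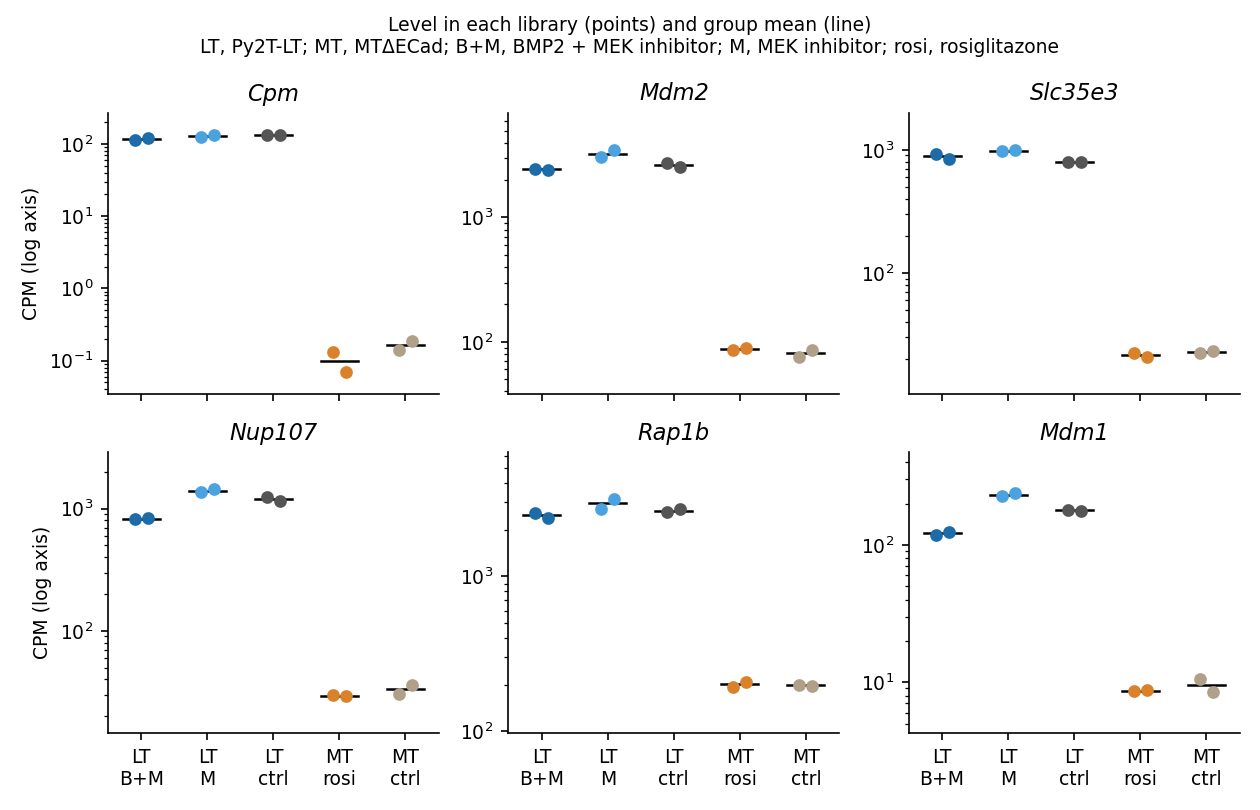
CPM of each gene (log axis) in each library, as points, with the group mean as a line. B+M is BMP2 plus MEK inhibitor, M the MEK inhibitor alone, LT is Py2T-LT and MT is MTΔECad. For each of the 6 genes, all 6 Py2T-LT libraries lie above all 4 MTΔECad libraries, as for Mdm2 at 2420 CPM or more against 88.6 CPM or less.

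Cpm, the neighbour on the other side of the facing 3′ ends, was close to absent from MTΔECad. It had 115 and 122 CPM with BMP2 plus MEK inhibitor, 124 and 131 CPM with MEK inhibitor and 132 and 134 CPM in Py2T-LT controls. Each MTΔECad library held 1 to 3 counts of it. The Py2T-LT controls together held 4281 counts and the MTΔECad controls 5, a ratio per unit of depth of 806 (exact 95% interval 345 to 2480, counting error only).

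Slc35e3 and Nup107 showed nearly the same gap between lines as Mdm2. Slc35e3 stood at 923 and 849 CPM with BMP2 plus MEK inhibitor, 972 and 994 CPM with MEK inhibitor, and 789 and 797 CPM in Py2T-LT controls. In MTΔECad it had 22.2 and 20.8 CPM with rosiglitazone and 22.4 and 23.2 CPM in controls. The control groups differed 34.7-fold (log2 5.12 ± 0.09). Nup107 had 815 and 833 CPM with BMP2 plus MEK inhibitor, 1360 and 1450 CPM with MEK inhibitor, and 1240 and 1160 CPM in Py2T-LT controls. Its MTΔECad values were 29.8 and 29.1 CPM with rosiglitazone and 30.2 and 36.2 CPM in controls, and the control groups differed 36-fold (log2 5.17 ± 0.10).

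Rap1b and Mdm1, farthest from Mdm2 by position, showed the smallest gaps of the 6. Rap1b had 2560 and 2400 CPM with BMP2 plus MEK inhibitor, 2740 and 3170 CPM with MEK inhibitor, and 2600 and 2720 CPM in Py2T-LT controls. It had 195 and 208 CPM in MTΔECad with rosiglitazone and 199 and 197 CPM in MTΔECad controls. That is a 13.4-fold gap between controls (log2 3.75 ± 0.09). Mdm1 stood at 119 and 125 CPM with BMP2 plus MEK inhibitor, 226 and 237 CPM with MEK inhibitor, and 180 and 178 CPM in Py2T-LT controls. Against these were 8.66 and 8.73 CPM in MTΔECad with rosiglitazone and 10.5 and 8.51 CPM in MTΔECad controls, an 18.9-fold gap between controls (log2 4.24 ± 0.10).

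Over the 6 genes the median log2 difference between the control groups was 5.07, beside 0.03 over the 13149 genes tested. All 10 libraries split by line without overlap for each of the 6, which their selection on this gap favours. The 2 control groups alone, an easier split, did not overlap for 80.1% of all genes tested. The share of all genes that split over all 10 libraries was not computed. A log2 difference past 1 was seen in 14% of all genes upward and in 25.9% in either direction. Of all genes tested, 6.01% were higher in Py2T-LT controls by more than 3 on the log2 scale, which the choice of members makes true of all 6. Other genes differed as much: Mdm2 was at place 480, Rap1b at place 672 and Cpm at place 76 when all genes were ordered by this difference. That order includes genes near the floor, such as Mfsd2a, at 3.72 CPM in Py2T-LT and 0 CPM in MTΔECad controls (log2 8.88). How many of the higher places such genes took was not counted. Together the 6 genes took 0.694% to 0.999% of the counts of a Py2T-LT library and 0.0317% to 0.034% of an MTΔECad library.

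Per kb of exon, the levels kept much the same order in both lines. In Py2T-LT controls the mean was 923 CPM per kb for Rap1b, 519 for Mdm2, 311 for Nup107, 225 for Slc35e3, 43.5 for Mdm1 and 22.3 for Cpm. In MTΔECad controls it was 68.6 CPM per kb for Rap1b, 15.9 for Mdm2, 8.62 for Nup107, 6.47 for Slc35e3, 2.31 for Mdm1 and 0.0274 for Cpm. In each of these 2 control groups no neighbours in the order had overlapping libraries. With BMP2 plus MEK inhibitor, Slc35e3 (251 CPM per kb) stood above Nup107 (214 CPM per kb).

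The high levels of Py2T-LT stopped short on the side of Cpm. Cpsf6 encodes an mRNA cleavage factor subunit and lies at -344.2 kb from Mdm2, with distances taken between lowest coordinates whatever the strand. It had 202 CPM in controls of Py2T-LT and 151 CPM in those of MTΔECad, a log2 difference of 0.42. Yeats4, Frs2 and Cct2, further out, differed by 0.10, -0.49 and 0.27 on the log2 scale. Lyz2, a lysozyme gene of macrophages that lies between Cpsf6 and Yeats4, had 23 counts in Py2T-LT controls and 4 in MTΔECad controls (ratio 5.41, exact 95% interval 1.85 to 21.5). Rab3ip and 4933412E12Rik, still within 1 Mb, differed by 0.35 and 0.72.

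Between Rap1b and Mdm1 lay the long noncoding RNA gene 4933411E08Rik, which is not among the 6 but showed the same contrast. The Py2T-LT controls held 443 counts of it and the MTΔECad controls 1 count (ratio 417, exact 95% interval 74.5 to 16500). Beyond Mdm1 the next gene expressed enough to test was Dyrk2, a kinase gene 1166.7 kb from Mdm2, with 158 CPM in controls of Py2T-LT and 24 CPM in those of MTΔECad (log2 2.72). Il22, Ifng and Ifngas1, which lie between, were too low to test. Cand1, Helb, Irak3 and Tmbim4 came next and differed by 0.30, 0.42, 0.30 and 0.33. 4930579P08Rik, Myrfl, D630029K05Rik, Best3 and Lrrc10, also within 1 Mb, were too low to test.

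**Figure D2:**
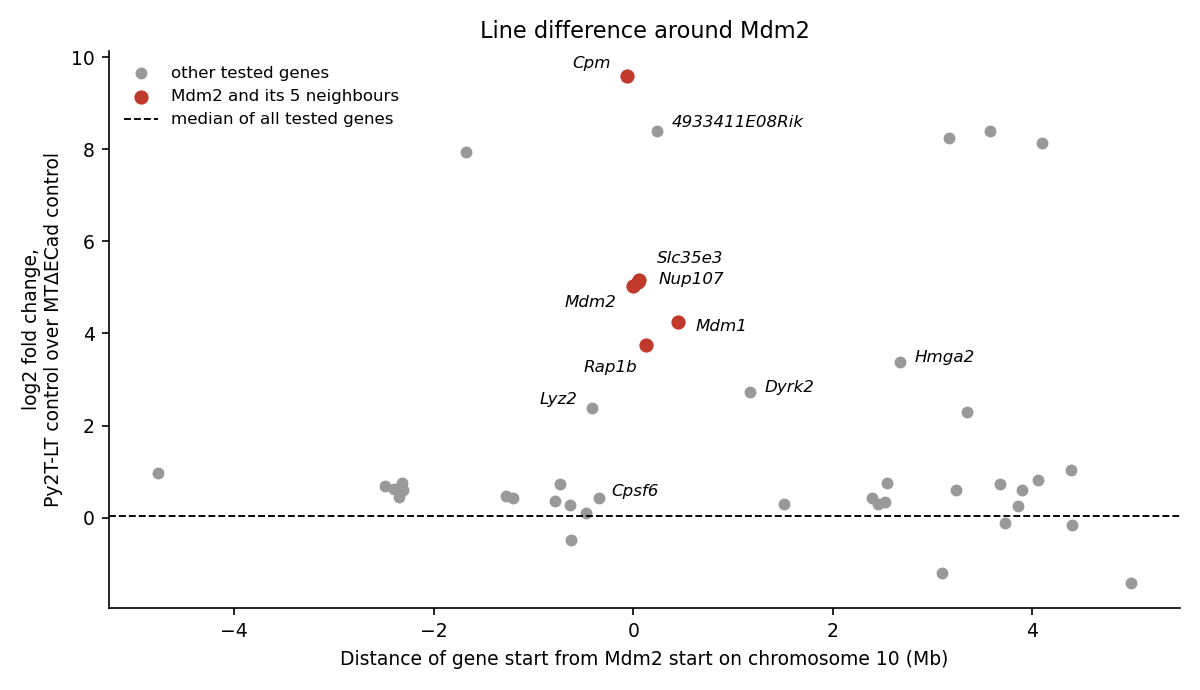
Log2 fold change of Py2T-LT control over MTΔECad control for each tested gene within 5 Mb of Mdm2, by distance in Mb. Gene start on the axis means the lowest coordinate of a gene, whatever its strand. The 6 genes of the block (red) lie at 3.75 or above, and the nearest tested gene on the side of Cpm, Cpsf6, lies at 0.42.

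The rest of chromosome 10 was measured for comparison. Of 8 other tested genes within 1 Mb, 2 were higher in Py2T-LT by more than 1 on the log2 scale, and the median was 0.38. Of 30 between 1 and 5 Mb, 8 were, with a median of 0.61. Of 620 beyond 5 Mb, 127 were (20.5%, beside 14% of all genes), with a median of 0.41. In the 1 to 5 Mb window 5 of the 30 genes passed 3 on the log2 scale, and 4 of these had 0 counts in every MTΔECad library. Beyond 5 Mb 47 of the 620 did, 17 of them with 0 counts in every MTΔECad library. Over all genes tested the share past 3 was 6.01%. The chromosome as a whole had a median of 0.43, the highest of chromosomes 1 to 19 and X, whose lowest was -0.39 on chromosome 14.

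The genes with the pattern most like that of Mdm2 over the 10 libraries are given as a description, since the likeness rests largely on the gap between the lines, on which the members were selected. Likeness was the root mean square difference of log2(CPM + 0.1), each gene centred on its own mean. Mfsd2a, a lysophospholipid transporter gene on chromosome 4, differed by 0.169 and Gnasas1 on chromosome 2 by 0.176, followed by Nup107 at 0.179, and Slc35e3 and Dpyd at 0.188 each. Mfsd2a, Gnasas1 and Dpyd had 0 counts in each MTΔECad library and 2.34 to 5.36 CPM in Py2T-LT, so their likeness depends on the 0.1 added to the CPM. The remaining genes of the block stood further away, Mdm1 at place 69 with 0.454, Rap1b at place 137 with 0.637 and Cpm at place 1614 with 2.01.

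In Py2T-LT cells given the MEK inhibitor, which blocks the kinase upstream of ERK, 4 of the 6 genes rose, by 1.17-fold to 1.29-fold. Of all genes tested, 8.98% rose and 7.52% fell in this comparison (16.5% in all). Mdm1 averaged 231 ± 8.2 CPM with MEK inhibitor and 179 ± 1.2 CPM in controls (SD, n = 2 each), a log2 change of 0.37 ± 0.08 (adjusted p = 0.0016, edgeR). Slc35e3 averaged 983 ± 16 CPM with MEK inhibitor and 793 ± 5.14 CPM in controls, a change of 0.31 ± 0.07 (adjusted p = 0.0033). Mdm2 averaged 3260 ± 280 CPM with MEK inhibitor and 2640 ± 136 CPM in controls, a change of 0.31 ± 0.08 (adjusted p = 0.0099). Its call was lost without MEK inhibitor replicate 2 (0.22, adjusted p = 0.18) and without control replicate 2 (0.25, adjusted p = 0.11).

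Nup107 passed narrowly, at 1400 ± 64 CPM with MEK inhibitor and 1200 ± 57.4 CPM in controls (log2 0.23 ± 0.08, adjusted p = 0.049). That call was lost on leaving out any 1 of the 4 libraries, at adjusted p between 0.051 and 0.31. Rap1b (0.15 ± 0.08, adjusted p = 0.22) and Cpm (-0.06 ± 0.08, adjusted p = 0.68) did not pass. The groups did not overlap for any of the 6, which held for 53.6% of all genes. The median log2 change of the 6 was 0.27, beside 0.01 over all genes.

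With BMP2 added to the MEK inhibitor, Nup107 and Mdm1 fell below the level of controls and the other 4 genes did not pass the test. Of all genes, 19.4% fell and 19.1% rose (38.5% in all). Mdm1 averaged 122 ± 4.32 CPM with BMP2 plus MEK inhibitor and 179 ± 1.2 CPM in controls (log2 -0.56 ± 0.08, adjusted p = 6.5e-06). Nup107 averaged 824 ± 13 CPM with both agents and 1200 ± 57.4 CPM in controls (log2 -0.54 ± 0.08, adjusted p = 9.2e-06). Mdm2 (-0.11 ± 0.08, adjusted p = 0.28), Rap1b (-0.10 ± 0.08, adjusted p = 0.32) and Cpm (-0.16 ± 0.08, adjusted p = 0.10) did not pass. Slc35e3 had the one positive estimate, 0.16 ± 0.07 (adjusted p = 0.078), which passed without BMP2 plus MEK inhibitor replicate 2 (0.22, adjusted p = 0.047). The libraries did not overlap for any of the 6, as for 67.2% of all genes, and their median change was -0.14 beside 0 over all genes.

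Set against the MEK inhibitor alone, BMP2 plus MEK inhibitor gave lower levels of 4 of the 6 genes. Of all genes, 19.4% fell and 17.9% rose (37.3% in all), and groups did not overlap for 67.2%. Mdm1 averaged 122 ± 4.32 CPM with both agents and 231 ± 8.2 CPM with MEK inhibitor (log2 -0.93 ± 0.08, adjusted p = 4.7e-09). Nup107 averaged 824 ± 13 CPM with both agents and 1400 ± 64 CPM with MEK inhibitor (log2 -0.77 ± 0.08, adjusted p = 8e-08). Mdm2 averaged 2440 ± 21.8 CPM with both agents and 3260 ± 280 CPM with MEK inhibitor (log2 -0.42 ± 0.08, adjusted p = 0.00024). The groups did not overlap for any of the 6 genes, including those that did not pass the test.

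Rap1b fell by less, to 2480 ± 113 CPM with both agents against 2960 ± 302 CPM with MEK inhibitor (log2 -0.26 ± 0.08, adjusted p = 0.014). Its call was lost without MEK inhibitor replicate 2 (-0.15, adjusted p = 0.24) and without BMP2 plus MEK inhibitor replicate 2 (-0.21, adjusted p = 0.11). Slc35e3 (-0.15 ± 0.07, adjusted p = 0.10) and Cpm (-0.10 ± 0.08, adjusted p = 0.32) did not pass. The 3 Py2T-LT comparisons share libraries, so their changes are not separate lines of evidence. Over these comparisons the log2 changes of Cpm ran from -0.16 to -0.06 and those of Mdm1 from -0.93 to 0.37, and whether the changes differ between genes was not tested.

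**Figure D3:**
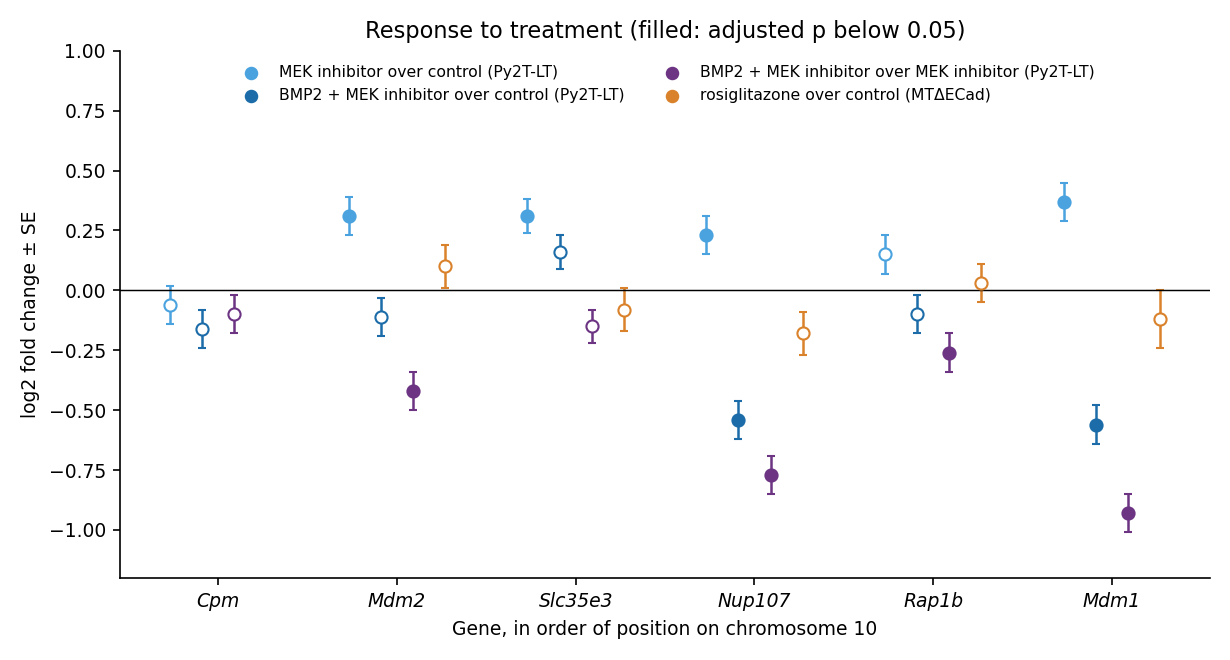
Log2 fold change ± SE of each gene in 4 treatment comparisons, in order of position; filled points have an adjusted p below 0.05. Cpm with rosiglitazone is left out, since it had 3 counts in treated and 5 in control MTΔECad cells. Mdm1 and Nup107 carry the lowest points, -0.93 and -0.77, for BMP2 plus MEK inhibitor over MEK inhibitor.

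In MTΔECad cells rosiglitazone changed none of the 6 genes by the edgeR test, by DESeq2 or at an unadjusted p below 0.05 (0 in each case), where 7.95% of all genes rose and 5.26% fell (13.2% in all). Mdm2 averaged 87 ± 2.39 CPM with rosiglitazone and 80.9 ± 6.85 CPM in controls (log2 0.10 ± 0.09, adjusted p = 0.55). Nup107 averaged 29.4 ± 0.484 CPM with rosiglitazone and 33.2 ± 4.23 CPM in controls (log2 -0.18 ± 0.09, adjusted p = 0.28). Slc35e3, Rap1b and Mdm1 had log2 changes of -0.08 ± 0.09, 0.03 ± 0.08 and -0.12 ± 0.12. Libraries did not overlap for 3 of the 6 genes, as for 51.5% of all genes. Cpm gives no fold change, with 3 counts in rosiglitazone libraries and 5 in controls.

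Of 10 p53 regulators other than Mdm2, 2 were higher in Py2T-LT controls by more than 1 on the log2 scale, Cdkn2a and Hipk2, and 0 were lower, with a median of 0.29, where 14% of all genes were higher. Hipk2 averaged 56.5 ± 23.3 CPM in Py2T-LT and 23.7 ± 3.13 CPM in MTΔECad controls (SD), so its Py2T-LT control libraries stood far apart. Trp53, which encodes p53, averaged 42.8 CPM in Py2T-LT and 47.6 CPM in MTΔECad controls. Mdm4, the relative of Mdm2 that also binds p53, averaged 112 CPM in Py2T-LT and 91.3 CPM in MTΔECad controls. Cdkn2a, whose products are the cell cycle inhibitor p16 and the Mdm2 inhibitor p19Arf, averaged 56.2 CPM in Py2T-LT and 0.393 CPM in MTΔECad controls. Under the MEK inhibitor Cdkn2a alone of the 10 rose (log2 0.45 ± 0.10, adjusted p = 0.0026), where 8.98% of all genes rose. With BMP2 added, Hipk2 and Atm, genes of kinases that act on p53, fell against controls, where 19.4% of all genes fell. Hipk2 averaged 22.9 ± 1.01 CPM with both agents and 56.5 ± 23.3 CPM in controls (-1.30 ± 0.27, adjusted p = 0.0096), and the change of Atm was -0.33 ± 0.08. Against the MEK inhibitor alone, Cdkn2a (-0.38 ± 0.10) and Atm (-0.30 ± 0.08) fell and Trp53bp1 (0.22 ± 0.09), a DNA damage adaptor gene, rose. In that comparison 19.4% of all genes fell and 17.9% rose. None of the 10 passed the test with rosiglitazone (0, where 13.2% of all genes did). Cdkn2a, at 0.401 CPM with rosiglitazone and 0.393 CPM in MTΔECad controls, was too low for a modest change to be called.

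Mdm2 is one of many genes that p53 is known to switch on. Of 23 tested targets, Mdm2 left out, 13 rose and 0 fell with the MEK inhibitor, with a median log2 change of 0.40, where 8.98% of all genes rose and 7.52% fell. The apoptosis gene Pmaip1 (Noxa) averaged 4.4 CPM with MEK inhibitor and 1.58 CPM in controls (log2 1.47 ± 0.26, adjusted p = 0.00044). The mitotic gene Gtse1, whose human product also restrains p53, averaged 29.6 CPM with MEK inhibitor and 13.8 CPM in controls (1.10 ± 0.13, adjusted p = 3.5e-06). Perp, a desmosome gene, rose by 0.67 ± 0.07, and the death receptor gene Tnfrsf10b by 0.54 ± 0.14. Cdkn1a, the p21 inhibitor of cyclin-dependent kinases, averaged 38.5 CPM with MEK inhibitor and 29 CPM in controls (0.41 ± 0.11, adjusted p = 0.016). Over the alternatives tried, the number that rose ran from 9 to 16.

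With BMP2 plus MEK inhibitor, 8 targets rose and 2 fell against controls, with a median of 0.20, where 19.1% of all genes rose and 19.4% fell. Pmaip1 (1.91 ± 0.25), the kinase gene Plk2 (1.09 ± 0.09), Phlda3, whose product restrains Akt (0.83 ± 0.10), and the antiproliferative gene Btg2 (0.74 ± 0.13) had the highest changes. On leaving out Py2T-LT control replicate 1, 5 targets rose. The count that fell was 1 by DESeq2, on leaving out either BMP2 plus MEK inhibitor library and without control replicate 2, and 3 without control replicate 1 and with no count filter. Against the MEK inhibitor alone, 3 targets rose and 8 fell, with a median of -0.08, where 17.9% of all genes rose and 19.4% fell. Gtse1 averaged 8.68 CPM with both agents and 29.6 CPM with MEK inhibitor (-1.76 ± 0.14, adjusted p = 1.6e-09), and Cdkn1a 24.9 CPM with both agents and 38.5 CPM with MEK inhibitor (-0.63 ± 0.11). Plk2 (0.95 ± 0.09) and Phlda3 (0.47 ± 0.10) rose. The count that fell was 5 without MEK inhibitor replicate 2. With rosiglitazone only Btg2 of the 23 rose, where 7.95% of all genes did, at 38.3 CPM with rosiglitazone and 21.8 CPM in controls (0.81 ± 0.12). Pmaip1, 1 of the 23, had 0 CPM in both MTΔECad groups and could not be called there. Between the lines, 6 of the 23 were higher and 1 lower in Py2T-LT by more than 1 on the log2 scale, with a median of 0.43, where 14% of all genes were higher and 11.9% lower.

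The other subunits of the Y complex, the nuclear pore scaffold that Nup107 belongs to, were measured beside it. Between the lines 0 of 9 passed 1 on the log2 scale, where 25.9% of all genes did in either direction. Their median was 0.61. With the MEK inhibitor only Nup37 rose (0.45 ± 0.11, adjusted p = 0.0068), where 8.98% of all genes did, and 0 of 9 rose without MEK inhibitor replicate 2. With BMP2 plus MEK inhibitor, 5 of 9 fell against controls, where 19.4% of all genes fell, among them Nup85 (-0.38 ± 0.08), Nup160 (-0.32 ± 0.10), Nup133 (-0.25 ± 0.09) and Sec13 (-0.23 ± 0.08). That count ran from 2 to 5 over the alternatives, with 2 by DESeq2 and on leaving out replicate 1 of either group, and 3 on leaving out replicate 2 of either group. Against the MEK inhibitor alone, 5 of 9 fell, where 19.4% of all genes did, led by Nup37 (-0.51 ± 0.11), Nup43 (-0.46 ± 0.12), Nup85 (-0.45 ± 0.08) and Nup133 (-0.34 ± 0.09). With rosiglitazone 0 of 9 changed, where 13.2% of all genes were called. The median changes were 0.07, -0.21, -0.31 and -0.10 in these 4 comparisons.

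**Figure D4:**
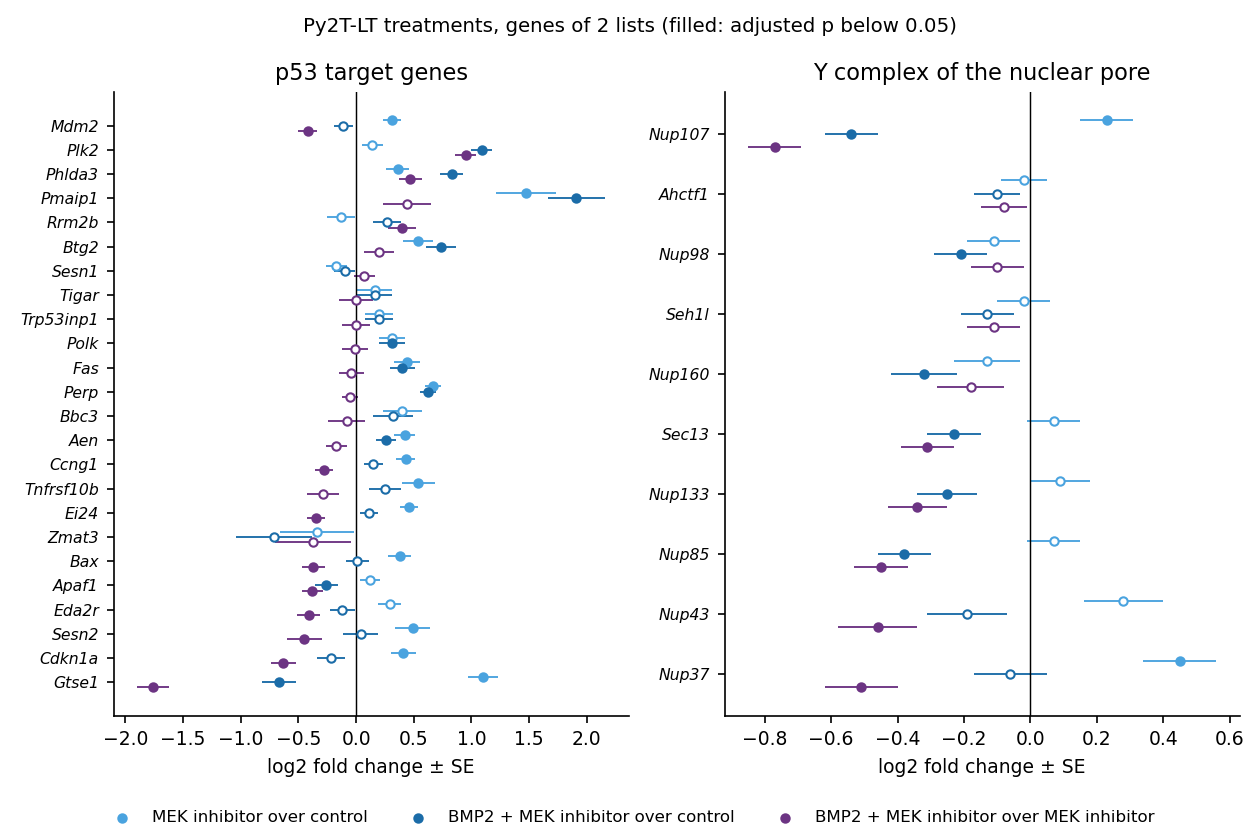
Log2 fold change ± SE in 3 Py2T-LT comparisons for Mdm2 with 23 p53 target genes (left) and for Nup107 with 9 other Y complex subunits (right); filled points have an adjusted p below 0.05. Among targets 13 rose with MEK inhibitor, and among the Y complex subunits 5 fell with BMP2 plus MEK inhibitor against controls.

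Of 12 tested genes around Rap1b in Rap1 signalling, 2 were higher and 1 lower in Py2T-LT by more than 1 on the log2 scale. Of all genes tested, 14% were higher and 11.9% lower by that much. Rap1a, the close relative of Rap1b, averaged 41.4 CPM in Py2T-LT and 30 CPM in MTΔECad controls. With the MEK inhibitor, where 16.5% of all genes were called either way, 2 rose and 2 fell, namely Rap1gap (0.91 ± 0.15) and Sipa1l1 (0.40 ± 0.09), and Rapgef3 (-0.61 ± 0.10) and Sipa1 (-0.44 ± 0.11). Rapgef3 encodes Epac1, a cyclic AMP-driven activator of Rap1, and the other 3 encode proteins that switch Rap1 off. With BMP2 plus MEK inhibitor 6 rose and 3 fell against controls, where 19.1% of all genes rose and 19.4% fell, and Rapgef3 averaged 15 CPM with both agents and 99.3 CPM in controls (-2.71 ± 0.11, adjusted p = 8.6e-14). Sipa1 (-0.92 ± 0.12) also fell there, and Rap1gap (0.63 ± 0.15) and Sipa1l1 (0.62 ± 0.09) rose. Against the MEK inhibitor alone 3 rose and 3 fell, where 17.9% of all genes rose and 19.4% fell, led by Rapgef3 (-2.10 ± 0.11), Afdn (0.52 ± 0.08), Sipa1 (-0.48 ± 0.12) and Rapgef6 (0.42 ± 0.07). With rosiglitazone Rapgef2 rose (0.28 ± 0.07) and Sipa1 (-0.45 ± 0.11) and Sipa1l1 (-0.32 ± 0.09) fell. In that comparison 7.95% of all genes rose and 5.26% fell.

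Relatives of Cpm and Slc35e3 elsewhere in the genome were measured last. Cpd, a carboxypeptidase of the Golgi in the family of Cpm, averaged 628 CPM in Py2T-LT and 266 CPM in MTΔECad controls. It was the one of 4 tested relatives that was higher by more than 1 on the log2 scale, as were 14% of all genes. Cpd fell with the MEK inhibitor (-0.27 ± 0.08, adjusted p = 0.026) and with BMP2 plus MEK inhibitor, at 291 CPM with both agents and 628 CPM in controls (-1.11 ± 0.08, adjusted p = 5.2e-10). Of all genes, 7.52% fell with the MEK inhibitor and 19.4% with BMP2 plus MEK inhibitor. Aebp1, a carboxypeptidase-like matrix protein gene, fell with the MEK inhibitor (-0.84 ± 0.10) and with rosiglitazone (-0.65 ± 0.09), where 5.26% of all genes fell. Set against the MEK inhibitor alone, Aebp1 rose (0.69 ± 0.09) and Cpd fell (-0.84 ± 0.08) when BMP2 was added. In that comparison 17.9% of all genes rose and 19.4% fell. Of 3 relatives of Slc35e3, Slc35e4 fell (-0.85 ± 0.12) and Slc35e2 rose (0.27 ± 0.09) with BMP2 plus MEK inhibitor against controls. There, 19.4% of all genes fell and 19.1% rose. Slc35e4 was also lower than with the MEK inhibitor alone (-0.77 ± 0.12), where 19.4% of all genes fell. None of the 3 passed the test with the MEK inhibitor or with rosiglitazone (0 each, where 16.5% and 13.2% of all genes did).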

How the data were processed

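RNA was sequenced from 10 libraries, 2 for each of 5 groups, with a stranded total RNA kit, per the labels' protocols. Whole-number counts per gene were deposited by the authors for 18103 NCBI gene IDs. The submitters' processing notes name STAR and mm10, and the counting tool was not given in the sources used here. Symbols and positions came from the RefSeq table for GRCm38 (18057 IDs matched; the 46 unmatched held 0.799% of counts) and exon lengths from GENCODE M21.

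Counts were scaled by TMM and tested with edgeR 4.0.16 in R 4.3.3 (quasi-likelihood, filterByExpr, 13149 genes, 1 mean per group, 5 residual degrees of freedom), with Benjamini-Hochberg adjustment over all genes and a threshold of 0.05. The standard error is the log2 fold change divided by the square root of F. The biological coefficient of variation was 7.07%. The code was tested on simulated data. The members and gene lists were chosen with earlier results of these data known. Named genes were the 6 members, genes within 1 Mb of Mdm2, the 5 next tested genes on either side, the 5 most like Mdm2, up to 4 per list and comparison with the largest called change, and Trp53, Mdm4, Cdkn1a, Rap1a, Cpd, Cdk4 and Hmga2 always. Alternatives were RLE scaling, TMM without chromosome 10, no count filter, a fit of only the compared groups, a replicate block, DESeq2 1.42.0 and leaving out each library. Counts of p53 targets and Y complex genes under each alternative were added after the data had been seen. Depth limits low genes: with 1 count at no more than 0.0696 CPM, the MTΔECad values of Cpm rest on 1 to 3 counts a library.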

Additional observations from a re-analysis of the deposited data

How the results depend on the processing

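For the 6 genes, no called change turned its direction under any alternative run. Other named genes were not followed one by one, and of the lists the counts of p53 targets and Y complex genes alone were recomputed. The number of the 6 genes called with the MEK inhibitor, 4, fell to between 2 and 3 on leaving out a library, and was 2 without MEK inhibitor replicate 2 or Py2T-LT control replicate 2. With only the 2 compared groups in the fit, Nup107 gave 0.22 (adjusted p = 0.065). For rosiglitazone, 1737 genes were called, and 1112 to 1338 on leaving out a library, with 1112 without MTΔECad control replicate 1. Of 2170 genes called with the MEK inhibitor 1181 rose and 989 fell, against 1012 and 1158 without Py2T-LT control replicate 1. The log2 gap of Cpm between the lines was 9.59, 9.82 without MTΔECad control replicate 2 and 9.85 over all libraries, and that of Slc35e3 5.12 and 5.32 over all libraries. The cause of these shifts was not tested.

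Deviations of same-numbered libraries correlated between -0.05 and 0.09, so no strong effect shared by replicate number was seen. That cannot tell whether same-numbered libraries came from the same experiment, and the labels give only a replicate number. With the replicate block, 4, 2, 4 and 0 of the 6 genes were called in the 4 treatment comparisons, the same counts as without it. RLE scaling left the median log2 change of all genes as it was in each comparison to 2 decimals. TMM without chromosome 10 did so too except between the lines, where the median was 0.05, against 0.03 with TMM on all genes.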

Other observations

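In human sarcomas MDM2 is amplified together with genes that in the mouse lie along chromosome 10. Of 21 tested mouse counterparts outside the 6 genes, 5 were higher in Py2T-LT controls by more than 1 on the log2 scale and 0 were lower, with a median of 0.45. These values are close to those of the whole chromosome, on which 21.5% of 664 tested genes were higher by more than 1 and the median was 0.43, beside 14% and 0.03 over all genes. Wif1, 1 of the 5, rested on 1 count in Py2T-LT controls and 0 in MTΔECad controls. Cdk4, the cell cycle kinase gene most often named with MDM2, averaged 411 CPM in Py2T-LT and 310 CPM in MTΔECad controls. Hmga2, a chromatin architecture gene of early development 2672.4 kb from Mdm2, averaged 171 CPM in Py2T-LT and 16.6 CPM in MTΔECad controls (log2 3.37).

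With the MEK inhibitor 2 of the 21 rose and 1 fell, where 8.98% of all genes rose and 7.52% fell. Hmga2 averaged 224 CPM with MEK inhibitor and 171 CPM in controls (log2 0.39 ± 0.08, adjusted p = 0.00099), and the innate signalling gene Irak3 fell (-0.72 ± 0.13). Wif1, which encodes a secreted Wnt inhibitor, had 24 counts with MEK inhibitor and 1 in controls (ratio 22.9, exact 95% interval 3.74 to 943). With BMP2 plus MEK inhibitor, 3 rose and 3 fell against controls, where 19.1% of all genes rose and 19.4% fell. Wif1 had 78 counts with both agents and 1 in controls (ratio 78.2, 13.6 to 3130), Agap2 rose (1.04 ± 0.37), Rab3ip rose (0.62 ± 0.09) and Irak3 fell (-1.21 ± 0.14). Cdk4 averaged 326 CPM with both agents and 411 CPM in controls (-0.33 ± 0.07). Against the MEK inhibitor alone 4 rose and 5 fell, where 17.9% of all genes rose and 19.4% fell, with Agap2 (1.94 ± 0.41), Wif1 (1.76 ± 0.38), Rab3ip (0.71 ± 0.09), Irak3 (-0.49 ± 0.14), Hmga2 (-0.46 ± 0.08) and Cdk4 (-0.43 ± 0.07) among them. With rosiglitazone Hmga2 (-0.36 ± 0.11) and Cdk4 (-0.26 ± 0.07) fell, where 5.26% of all genes did.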
